A study of Mus musculus with 16 samples.

Results

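A single injection of lipopolysaccharide (LPS) given before birth was set against a single injection given at puberty, by comparing the whole-brain RNA of the 4 mice labelled LPS-Saline with that of the 4 mice labelled Saline-LPS. These 8 libraries, of 16 in the study, were taken by their treatment label, and all genes listed in their count files were used. In the study, pregnant C57BL/6 mice received LPS or saline by the intraperitoneal route on gestation day 16. Male offspring, as the labels call them, received 1 of the same agents on postnatal day 30. Whole brains were taken on postnatal day 32, with 1 library per mouse. LPS-Saline mice had a dam that received LPS and received saline themselves. Saline-LPS mice had a dam that received saline and received LPS themselves. Saline-Saline mice had saline both times and LPS-LPS mice had LPS both times, with 4 mice in each of the 4 groups. By their labels, all groups therefore shared the strain, the tissue, the age and the handling of an injection on both days.

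The first word of a group name was taken as the injection of the dam, since the protocol names the dam first. No label says so outright. If the second word were the dam's, prenatal and pubertal would trade places in every sentence here. The day of injection, its recipient (the dam or the mouse itself) and the time from LPS to collection, which was 2 days in Saline-LPS mice and spanned late gestation and early life in LPS-Saline mice, cannot be told apart. No label gives the litter. Mice of 1 group may share a dam, and p-values reflect the spread between the mice sampled.

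LPS, from the outer membrane of Gram-negative bacteria, is sensed through Toll-like receptor 4 and its co-receptor CD14, mainly on myeloid cells, and leads to NF-kappaB signalling, type I interferon and cytokines. Major histocompatibility complex (MHC) class I molecules, a heavy chain paired with beta-2-microglobulin, present peptides to CD8 T cells, and their genes respond to interferon. Systemic LPS also raises circulating glucocorticoids, which act on astrocytes and other brain cells through the glucocorticoid receptor.

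Of 18875 tested genes, 18 passed an adjusted p of 0.05 in the quasi-likelihood test of edgeR (adjusted by Benjamini-Hochberg), which is 0.0954% of them. There were 14 genes higher in LPS-Saline mice (0.0742%) and 4 higher in Saline-LPS mice (0.0212%). The 14 were led by MHC class I genes (H2-Q6, H2-Q7, H2-Q5, H2-Q4, H2-K1, H2-D1 and their partner B2m), followed by the interferon-stimulated genes Irf7 and Ifi27l2a, the myeloid genes Lyz2, Fcgr3 and Ctss, the acute-phase gene Saa3, and Ctla2a. The 4 genes higher in Saline-LPS mice were Etnppl, Sult1a1, Tsc22d3 and Gjb6. In all that follows a positive log2 fold change is a higher level in LPS-Saline mice, levels are library-scaled counts (CPM), and values of mice are given in the order of their replicate numbers 1 to 4.

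**Figure D1:**
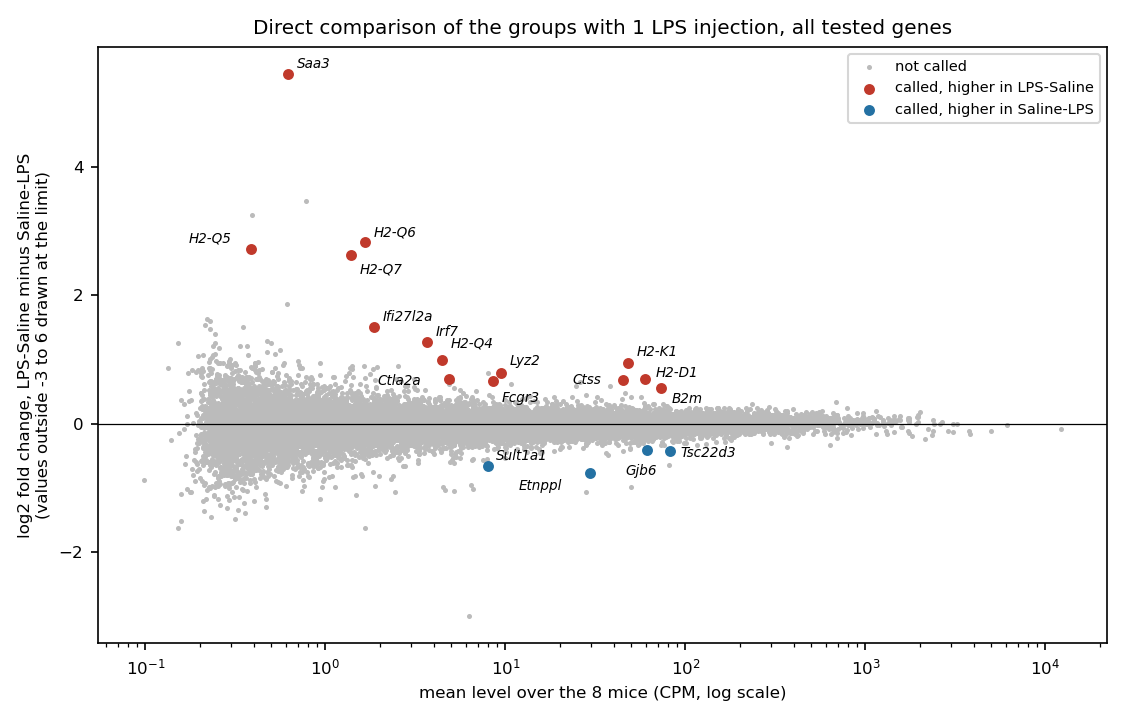
Mean level over the 8 mice (CPM, log axis) against the log2 fold change of LPS-Saline minus Saline-LPS for the 18875 tested genes. Red points are the 14 genes called higher in LPS-Saline, blue points the 4 called higher in Saline-LPS, and grey points all others.

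Library totals ran from 25729919 to 38571036 gene counts in the 8 libraries, so that 1 count stood for at most 0.0389 CPM. The libraries also differed in brain content: Gabra6, which marks granule cells of the cerebellum, was at or under 0.104 CPM in replicates 1 and 2 of both groups and at 17 to 70.4 CPM in replicates 3 and 4 of both. Split in this way, which was made from the data and leaves 2 mice against 2, the test called 17 genes among the Gabra6-low libraries and 2 (H2-Q6 and H2-D1) among the Gabra6-high ones. Without LPS-Saline 1, or without Saline-LPS 3, the count fell from 18 to 11. Replicate numbers were carried by the labels, and with the replicate number as a block the count was 39, of which 26 were higher in LPS-Saline. In the 8 libraries Xist, expressed in females, was at most 0.276 CPM and the Y-linked gene Ddx3y at least 35.6 CPM. The library labelled LPS-LPS 3 went against its male label, at 503 and 0 CPM, and it enters here only through the shared estimate of the spread and the LPS-LPS values. Without that library, 16 genes were called, and Ctla2a and Gjb6 no longer passed.

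The stretches upstream of 5 of the 14 genes are shown because they hold the letters of elements known from interferon and NF-kappaB signalling, described below. They are the 200 bases before the RefSeq start site on GRCm38.p6, 5′ to 3′ on the strand of the gene, with the matched letters in capitals. H2-K1 lies at chr17:34000348-34000547 (minus strand), H2-Q7 at chr17:35438955-35439154 (plus), B2m at chr2:122147487-122147686 (plus), Ctss at chr3:95526586-95526785 (plus) and Saa3 at chr7:46715677-46715876 (minus).
H2-K1: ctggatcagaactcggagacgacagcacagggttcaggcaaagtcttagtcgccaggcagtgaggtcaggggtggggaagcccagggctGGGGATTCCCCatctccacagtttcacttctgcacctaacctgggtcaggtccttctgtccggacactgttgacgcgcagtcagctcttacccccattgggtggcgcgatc
H2-Q7: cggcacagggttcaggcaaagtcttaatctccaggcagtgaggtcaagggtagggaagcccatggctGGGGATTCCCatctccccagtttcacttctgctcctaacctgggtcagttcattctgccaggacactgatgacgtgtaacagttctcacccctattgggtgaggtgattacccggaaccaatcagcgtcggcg
B2m: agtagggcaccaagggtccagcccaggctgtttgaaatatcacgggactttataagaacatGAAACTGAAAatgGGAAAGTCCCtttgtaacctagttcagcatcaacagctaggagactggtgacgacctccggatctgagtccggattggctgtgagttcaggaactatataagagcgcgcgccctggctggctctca
Ctss: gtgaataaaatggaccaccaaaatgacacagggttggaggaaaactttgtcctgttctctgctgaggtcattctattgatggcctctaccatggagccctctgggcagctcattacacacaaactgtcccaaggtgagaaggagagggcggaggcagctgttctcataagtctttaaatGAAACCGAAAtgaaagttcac
Saa3: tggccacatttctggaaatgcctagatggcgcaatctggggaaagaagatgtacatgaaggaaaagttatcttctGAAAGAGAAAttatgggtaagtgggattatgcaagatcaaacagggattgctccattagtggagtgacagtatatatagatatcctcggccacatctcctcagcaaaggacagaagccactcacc

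A RefSeq promoter window of 300 bases was at hand for 16 of the 18 called genes, 12 higher in LPS-Saline and 4 higher in Saline-LPS. The core of the interferon-stimulated response element, GAAANNGAAA on either strand, was found in B2m, Ctss and Saa3, which is 3 of 12, against 3.44% of all 32851 windows. Among windows of tested genes the share was 3.07%. Its first base lies 139, 21 and 125 bases before the start site. Letters of the NF-kappaB consensus, in either orientation, were found in 7 of the 12 (H2-Q6, H2-Q7, H2-D1, H2-K1, H2-Q4, B2m and Fcgr3) and in 1 of the 4 (Tsc22d3, in 1 of its 3 windows), against 8.46% of all windows and 10.4% of those of tested genes. Genes with several windows have more chances of a match than a single window. The H2 windows are copies of one another by descent and are not independent. The core of the glucocorticoid response element, GNACANNNTGTNC, was found in 0 of the 12 and 0 of the 4, against 0.475% of all windows and 0.368% of those of tested genes. A match is a description of letters, and no match says only that these letters are not in this window.

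The classical class I heavy chains H2-K1 and H2-D1 and their shared light chain were higher in every LPS-Saline mouse than in any Saline-LPS mouse. H2-K1 (ENSMUSG00000061232, GRCm38 chr17:33996017-34000347) stood at 75.9, 73.9, 53.8 and 50.5 CPM in LPS-Saline mice and at 34.8, 35.3, 32.1 and 29.1 CPM in Saline-LPS mice. Its log2 fold change was 0.95 ± 0.13 (SE, n = 4 against 4, edgeR adjusted p = 0.00323), a ratio of 1.94. The difference was 1.09 on the log2 scale among Gabra6-low libraries and 0.76 among Gabra6-high ones, where the adjusted p was 0.196.

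H2-D1 (ENSMUSG00000073411, chr17:35262730-35267499) stood at 80.4, 74.2, 68.3 and 74.3 CPM in LPS-Saline mice and at 41, 43, 51.8 and 46.4 CPM in Saline-LPS mice. The log2 fold change was 0.70 ± 0.09 (edgeR adjusted p = 0.000611). H2-D1 and H2-Q6 were the 2 genes that passed under each of the 21 alternative settings. B2m (ENSMUSG00000060802, chr2:122147686-122153083), the light chain without which class I molecules do not reach the cell surface, stood at 93.8, 92, 84 and 77.1 CPM against 58.4, 53.7, 61.5 and 62.9 CPM. Its log2 fold change was 0.55 ± 0.07 (edgeR adjusted p = 0.000762), with no overlap between the groups. With a correction for GC content and gene length it was 0.57 with an adjusted p of 0.0894.

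The nonclassical Qa-2 genes, which lie beside each other on chromosome 17, had the larger ratios. H2-Q6 (ENSMUSG00000073409, chr17:35424850-35430055) stood at 3.39, 3.58, 2.2 and 2.51 CPM in LPS-Saline mice and at 0.438, 0.563, 0.195 and 0.46 CPM in Saline-LPS mice. H2-Q7 (ENSMUSG00000060550, chr17:35439155-35443773) stood at 2.47, 3.42, 1.3 and 2.4 CPM against 0.344, 0.413, 0.357 and 0.429 CPM. The log2 fold changes were 2.82 ± 0.29 for H2-Q6 (edgeR adjusted p = 6.17e-05) and 2.63 ± 0.32 for H2-Q7 (adjusted p = 0.000476).

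H2-Q4 (ENSMUSG00000035929, chr17:35379617-35385290) stood at 7.19, 7.07, 4.91 and 4.48 CPM against 3.31, 3.34, 2.73 and 2.58 CPM, with a log2 fold change of 0.99 ± 0.15 (edgeR adjusted p = 0.00441). H2-Q5, annotated as a polymorphic pseudogene, was called as well, at 2.72 ± 0.45 on the log2 scale from 86 against 12 counts in all. The groups did not overlap for any of these 4 called H2-Q genes. These genes are near-identical copies, reads with several best alignments were not counted, and so their counts are uncertain and a change in 1 copy may appear in another.

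Of 25 genes of class I presentation (heavy chains, B2m, peptide loading and immunoproteasome), 24 were tested. Of these, 6 were called, all higher in LPS-Saline, against 0.0742% of all tested genes in that direction (H2-Q5 is not in this list). Without regard to the threshold 21 of the 24 had a positive value, with a median log2 fold change of 0.26 against -0.004 over all tested genes. In 12 of the 24 every LPS-Saline mouse lay above every Saline-LPS mouse, against 2.35% of all tested genes. The summed level of the list was 397 to 478 CPM in LPS-Saline mice and 322 to 334 CPM in Saline-LPS mice. The list's other separated members, chosen here after their values were seen, include the immunoproteasome subunits Psmb9 (0.71 ± 0.21, edgeR adjusted p = 0.349) and Psmb8 (0.62 ± 0.23, adjusted p = 0.555), the peptide transporter Tap2 (0.37 ± 0.12, adjusted p = 0.457) and Nlrc5 (0.57 ± 0.27, adjusted p = 0.69), the transactivator of class I genes. Its H2-Q1 (0.12 ± 0.23, edgeR adjusted p = 0.956) and H2-Q2 (-0.00 ± 0.18, adjusted p = 0.999) overlapped between the groups. The lowest value of the list was that of H2-T24, -0.18. By contrast the MHC class II and border macrophage list, with 18 tested members, had 0 calls in edgeR and 0 in DESeq2, 1 member under an unadjusted p of 0.05 and a median of -0.05. Its H2-Ab1, a class II chain, was at -0.54 ± 0.19 (edgeR adjusted p = 0.513).

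**Figure D2:**
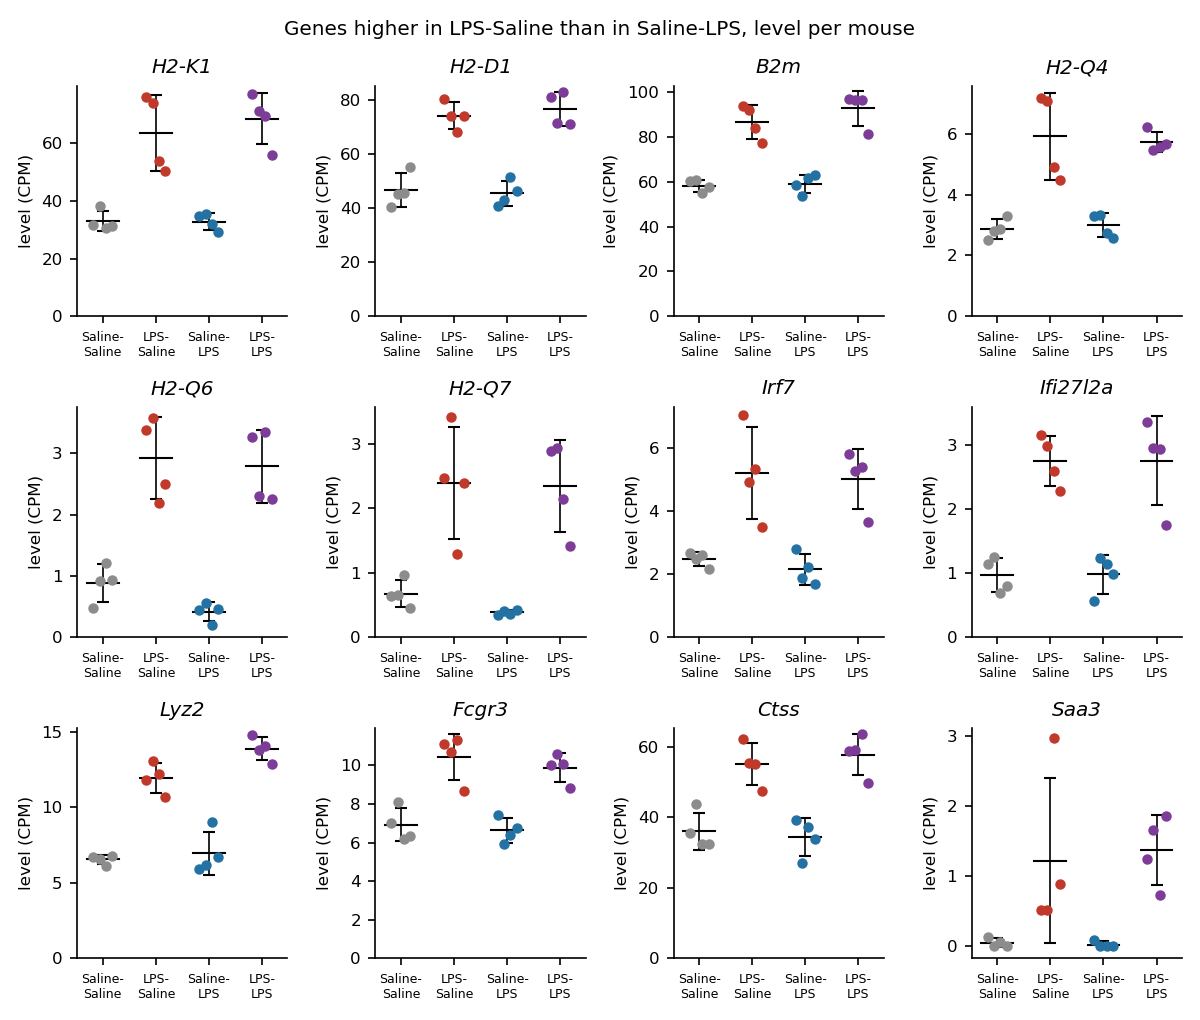
Level in CPM of 12 genes called higher in LPS-Saline than in Saline-LPS, 1 point per mouse, in all 4 groups, with a horizontal line at the mean and bars of 1 SD (n = 4). In each panel every LPS-Saline mouse lies above every Saline-LPS mouse, and Saline-Saline and LPS-LPS mice are drawn for reference.

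Among interferon-stimulated genes, 2 of 46 tested members were called higher in LPS-Saline, against 0.0742% of all tested genes. Irf7 (ENSMUSG00000025498, chr7:141262706-141266481), the transcription factor that amplifies type I interferon, stood at 7.02, 4.92, 5.33 and 3.48 CPM in LPS-Saline mice against 2.81, 1.88, 2.21 and 1.69 CPM in Saline-LPS mice, a log2 fold change of 1.27 ± 0.20 (edgeR adjusted p = 0.00441). Ifi27l2a (ENSMUSG00000079017, chr12:103442167-103443680) stood at 3.15, 2.98, 2.59 and 2.28 CPM against 0.563, 1.24, 1.14 and 0.981 CPM, a log2 fold change of 1.5 ± 0.24 (edgeR adjusted p = 0.00696). Both genes separated the groups completely and passed in each of the 8 fits that left out 1 library. In a fit of the 8 libraries alone Ifi27l2a passed (edgeR adjusted p = 0.0365) and Irf7 did not (adjusted p = 0.0796).

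Both of the other genes of the list that were named by their p, Bst2 and Ifi27, missed the threshold. Bst2, which tethers budding virus particles to the cell, was at 0.66 ± 0.15 (edgeR adjusted p = 0.136) and Ifi27 at 0.45 ± 0.11 (adjusted p = 0.166), both without overlap. Each passed with the replicate number as a block (adjusted p = 0.0161 and 0.0147), with DESeq2 (0.0146 and 0.0309) and with a cerebellar covariate (0.0384 and 0.0458). In the 8 libraries alone neither passed (edgeR adjusted p = 0.21 and 0.442). With the block, 6 of the 46 were called, and 1 in the 8 libraries alone. The list had a median of 0.14 and 35 positive members, against -0.004 and 9204 of 18875 over all tested genes, and 6 members separated the groups upward, against 2.35%. The median was 0.23 among Gabra6-low libraries, with 38 positive members, and 0.05 among Gabra6-high ones, with 26. Oas1b, an antiviral enzyme gene, had the list's lowest value at -0.17.

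Lysozyme, an Fc receptor and a lysosomal protease, all made by microglia and other myeloid cells, were higher in LPS-Saline mice, and they are the 3 called of 27 tested genes of microglial activation, against 0.0742% of all tested genes in that direction. Lyz2 (ENSMUSG00000069516, chr10:117277331-117282321) stood at 11.8, 13.1, 12.2 and 10.7 CPM against 5.91, 6.19, 9.03 and 6.69 CPM, a log2 fold change of 0.78 ± 0.11 (edgeR adjusted p = 0.002). Fcgr3 (ENSMUSG00000059498, chr1:171051174-171064935), which binds immunoglobulin G, stood at 11.1, 10.7, 11.3 and 8.65 CPM against 7.44, 5.93, 6.37 and 6.78 CPM, a log2 fold change of 0.66 ± 0.11 (edgeR adjusted p = 0.00914). Ctss (ENSMUSG00000038642, chr3:95526786-95556403), the cathepsin that trims the class II invariant chain, stood at 62.3, 55.3, 55 and 47.6 CPM against 39.3, 27, 37.2 and 33.8 CPM, a log2 fold change of 0.68 ± 0.12 (edgeR adjusted p = 0.0192).

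The groups did not overlap for these 3 genes. Lyz2 passed in each of the 8 fits that left out 1 library, Fcgr3 in 5 and Ctss in 3. In a fit of the 8 libraries alone none of the 3 passed (edgeR adjusted p = 0.0796, 0.0981 and 0.0754). There 0 of the list's 26 tested genes were called. Lyz2 was at 1.04 among Gabra6-low libraries and 0.55 among Gabra6-high ones, and the list's median at 0.24 and 0.08. Without LPS-Saline 1, or without Saline-LPS 3, only 1 of the list's 27 genes was called. Corrected for GC content and length, Ctss had an adjusted p of 0.13. The list's median was 0.18, with 19 positive members and 4 that separated the groups upward, against 2.35% of all tested genes. Its lowest member, Cst7, a cysteine protease inhibitor gene, was not called.

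A list of homeostatic microglial genes was looked at next. Of its 20 genes, 0 were called by edgeR and 2 by DESeq2. The median was 0.10, with 12 positive and 8 negative members. Under an unadjusted p of 0.05 in edgeR were 5 higher and 1 lower, against 3.96% and 3.16% of all tested genes. Of the 20, 3 separated the groups upward, against 2.35% of all tested genes. Among them, chosen here after their values were seen, were Trem2 (0.41 ± 0.10, edgeR adjusted p = 0.156) and Tyrobp (0.37 ± 0.10, adjusted p = 0.295), a microglial receptor and its signalling adaptor. P2ry12 (-0.16 ± 0.12, edgeR adjusted p = 0.853), Tmem119 (-0.03 ± 0.12, adjusted p = 0.982) and Cx3cr1 (-0.00 ± 0.09, adjusted p = 0.998), chosen in the same way, were not higher. Spi1, the myeloid transcription factor PU.1, stood at 7.19, 6.63, 5.84 and 5.06 CPM against 4.34, 4.09, 4.38 and 4.11 CPM, without overlap (log2 fold change 0.55 ± 0.12, edgeR adjusted p = 0.103). Aif1, which encodes IBA1, overlapped between the groups (0.29 ± 0.14, adjusted p = 0.69), and Mertk, a receptor for the uptake of dying cells, had the lowest value at -0.31 ± 0.10. The summed level of the list was 356 to 437 CPM in LPS-Saline mice and 342 to 464 CPM in Saline-LPS mice. In bulk tissue, more or fewer cells of a type and more or less RNA per cell cannot be told apart.

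The complement list held 0 calls of 18 tested genes in edgeR, 3 with the replicate block and 3 in DESeq2. It had 5 members under an unadjusted p of 0.05, all higher in LPS-Saline, against 3.96% of all tested genes in that direction. C3, the central component of the cascade, stood at 1.49, 2.31, 1.75 and 1.74 CPM against 1.19, 0.788, 1.01 and 0.951 CPM, with no overlap (0.89 ± 0.26, edgeR adjusted p = 0.306). The 3 chains of C1q, chosen here after their values were seen, were at 0.41 ± 0.09 (C1qa, adjusted p = 0.145), 0.38 ± 0.08 (C1qb, adjusted p = 0.077) and 0.41 ± 0.11 (C1qc, adjusted p = 0.269). The lowest value was that of C2, at -0.31.

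Saa3 (ENSMUSG00000040026, chr7:46711998-46715700), an acute-phase serum amyloid A gene induced by LPS, was close to undetected in Saline-LPS mice. It stood at 0.509, 0.518, 2.96 and 0.888 CPM in LPS-Saline mice and at 0.0938, 0, 0 and 0 CPM in Saline-LPS mice. These are 163 against 3 counts in all, a depth-scaled ratio of 51.1 with an exact 95% interval of 17.2 to 250 that covers counting error only. The edgeR adjusted p was 0.0402. It was 0.0837 with the replicate block and 0.235 in a fit of the 8 libraries alone, and the gene did not pass when any 1 of the Saline-LPS libraries was left out.

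The remaining 26 tested genes of the LPS sensing and acute-phase list were not called, and the list's median was 0.04. Lcn2, an iron-withholding acute-phase protein gene, overlapped between the groups at 0.746, 1.19, 0.479 and 0.657 CPM against 0.219, 0.526, 0.455 and 0.215 CPM (1.15 ± 0.39, edgeR adjusted p = 0.476). Nfkbia, the NF-kappaB inhibitor that is itself an NF-kappaB target, was lower in every LPS-Saline mouse (-0.28 ± 0.09, adjusted p = 0.425). The cytokine genes were too low to test: Il1b had 25 against 28 counts over 4 libraries each, Tnf 5 against 0 and Il6 4 against 3. No difference in them was detectable at this depth.

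Ctla2a, a cathepsin inhibitor gene (ENSMUSG00000044258, chr13:60934155-60936625), completed the genes higher in LPS-Saline. It stood at 5.22, 7.13, 5.58 and 5.87 CPM against 3.44, 4.21, 2.89 and 4.26 CPM (0.69 ± 0.13, edgeR adjusted p = 0.0422). The groups did not overlap, yet it passed in only 2 of the 8 fits that left out 1 library.

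The 4 genes higher in Saline-LPS mice include the glucocorticoid-induced gene Tsc22d3 and the astrocyte genes Etnppl and Gjb6, with ratios of 1.33 to 1.7. Etnppl (ENSMUSG00000019232, chr3:130617448-130637521), an astrocyte enzyme gene of phosphoethanolamine breakdown, stood at 22.6, 19.1, 23.1 and 22.5 CPM in LPS-Saline mice and at 38, 34.5, 43 and 33 CPM in Saline-LPS mice. The log2 fold change was -0.77 ± 0.11 (edgeR adjusted p = 0.00242), and it passed in each of the 8 fits that left out 1 library.

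Sult1a1 (ENSMUSG00000030711, chr7:126672865-126676432), a phenol sulfotransferase gene, stood at 6.07, 6.27, 6.8 and 5.49 CPM against 8.97, 10.6, 10.8 and 8.68 CPM (-0.66 ± 0.11, edgeR adjusted p = 0.0116). Tsc22d3 (ENSMUSG00000031431, chrX:140539528-140600659), which encodes the glucocorticoid-induced leucine zipper GILZ, stood at 67.6, 65.4, 72.5 and 73.1 CPM against 94.6, 97, 95 and 89.5 CPM (-0.43 ± 0.08, edgeR adjusted p = 0.0181). Gjb6 (ENSMUSG00000040055, chr14:57123303-57133611), which encodes the astrocyte gap junction protein connexin 30, stood at 54.3, 44.5, 57.5 and 52.7 CPM against 74.6, 66.3, 75.1 and 61.8 CPM (-0.41 ± 0.08, edgeR adjusted p = 0.032). Each of the 4 genes separated the groups without overlap.

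**Figure D3:**
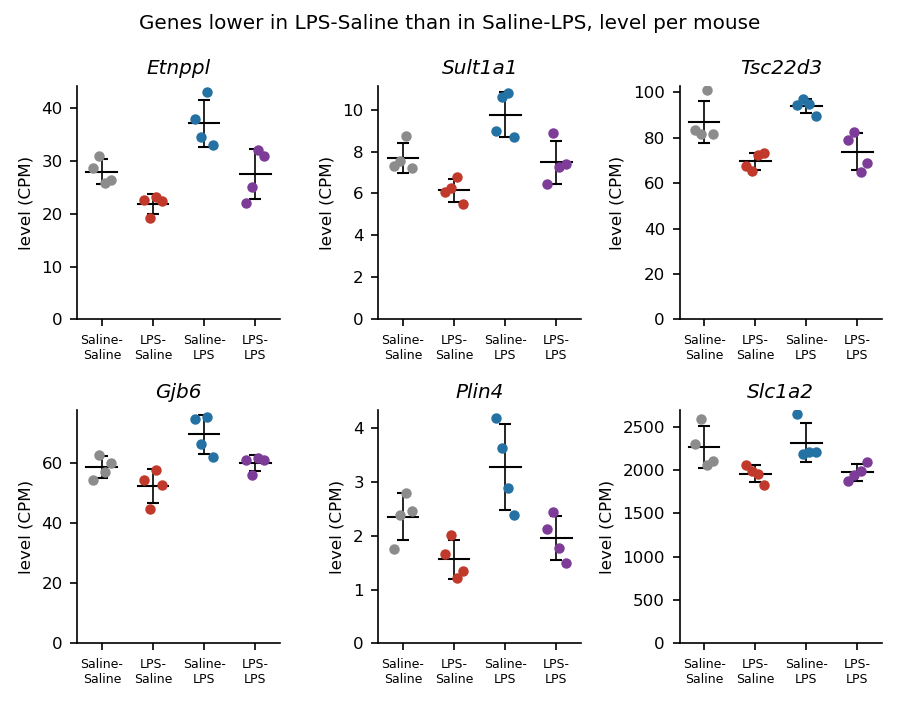
Level in CPM of the 4 genes called higher in Saline-LPS (Etnppl, Sult1a1, Tsc22d3, Gjb6) and of Plin4 and Slc1a2, which did not pass, 1 point per mouse, with the mean and 1 SD (n = 4). In all 6 panels every Saline-LPS mouse lies above every LPS-Saline mouse, and the Saline-Saline mean lies between the means of the 2 groups.

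Of 20 glucocorticoid-responsive genes, 19 were tested and 3 were called, all lower in LPS-Saline (Sult1a1, Tsc22d3 and Gjb6). Over all tested genes the share called in that direction was 0.0212%. Of the 19, 18 had a negative value, and the median was -0.24. In 12 of the 19 the unadjusted p was under 0.05 with a lower level in LPS-Saline, against 3.16% of all tested genes, and 7 of the 19 separated the groups downward, against 1.29%. The summed level of the list was 1073 to 1158 CPM in LPS-Saline mice and 1267 to 1343 CPM in Saline-LPS mice. The 3 calls were not stable: 0 of the list's genes were called without LPS-Saline 1, without Saline-LPS 2 or without Saline-LPS 3, although the median over the 21 alternatives lay between -0.31 and -0.23.

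Plin4, a lipid droplet coat gene, had the list's lowest value at -1.06 ± 0.21 and narrowly missed the threshold (edgeR adjusted p = 0.0524). It stood at 1.66, 2.02, 1.21 and 1.35 CPM against 4.19, 3.64, 2.89 and 2.39 CPM, without overlap, and passed with the replicate block (adjusted p = 0.0141). Further members, chosen here after their values were seen, were Sgk1, a glucocorticoid-induced kinase gene (-0.64 ± 0.23, edgeR adjusted p = 0.555), Hif3a (-0.96 ± 0.24, adjusted p = 0.256), Ddit4, an inhibitor of mTORC1 (-0.33 ± 0.10, adjusted p = 0.381), and the transcription factor gene Klf9 (-0.23 ± 0.09, adjusted p = 0.589). Cdkn1a was the member with a positive value, at 0.01.

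Homeostatic astrocyte genes leaned the same way, with a median of -0.14. Of 20 tested members 17 were negative, against 9671 of 18875 over all tested genes. The 1 call, against 0.0212% of all tested genes in that direction, was Gjb6, which also belongs to the glucocorticoid list. Under an unadjusted p of 0.05 and lower were 7 of the 20, against 3.16%, and 2 separated the groups downward, against 1.29%. Slc1a2, the main glutamate transporter of astrocytes, stood at 2062, 1984, 1959 and 1824 CPM against 2652, 2186, 2213 and 2213 CPM, without overlap (-0.24 ± 0.07, edgeR adjusted p = 0.381). Without LPS-Saline 1, 2 or 4, or without Saline-LPS 1, 2 or 3, Gjb6 did not pass. The summed level of the list overlapped, at 8011 to 9091 CPM in LPS-Saline mice and 8710 to 10334 CPM in Saline-LPS mice. Reactive astrocyte genes had 0 calls of 25 in edgeR and 0 in DESeq2, with a median of 0.14. Under an unadjusted p of 0.05 were 5 higher and 1 lower, against 3.96% and 3.16% of all tested genes. Gfap, the intermediate filament gene of reactive astrocytes, was at 339 ± 29 CPM against 314 ± 29.9 CPM (SD, n = 4 in each; log2 fold change 0.11 ± 0.07, edgeR adjusted p = 0.811).

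Below the threshold, the genes with the smallest p among those lower in LPS-Saline were Plin4 and 5 others. They include the muscle-type glycogen phosphorylase gene Pygm, found in astrocytes in the brain (-0.39 ± 0.08, edgeR adjusted p = 0.12), and Phka1, a subunit of the kinase that activates it (-0.31 ± 0.07, adjusted p = 0.136). The others were the zinc transporter gene Slc39a12 (-0.43 ± 0.10, adjusted p = 0.143), the lysine catabolism gene Aass (-0.61 ± 0.14, adjusted p = 0.143) and Trp53inp1 (-0.39 ± 0.09, adjusted p = 0.15). Slc39a12 was the one of the 5 whose groups overlapped. Pygm and Phka1 passed with the replicate block (adjusted p = 0.0364 and 0.0376), and all 5 passed with DESeq2 (adjusted p from 0.0095 to 0.0228).

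**Figure D4:**
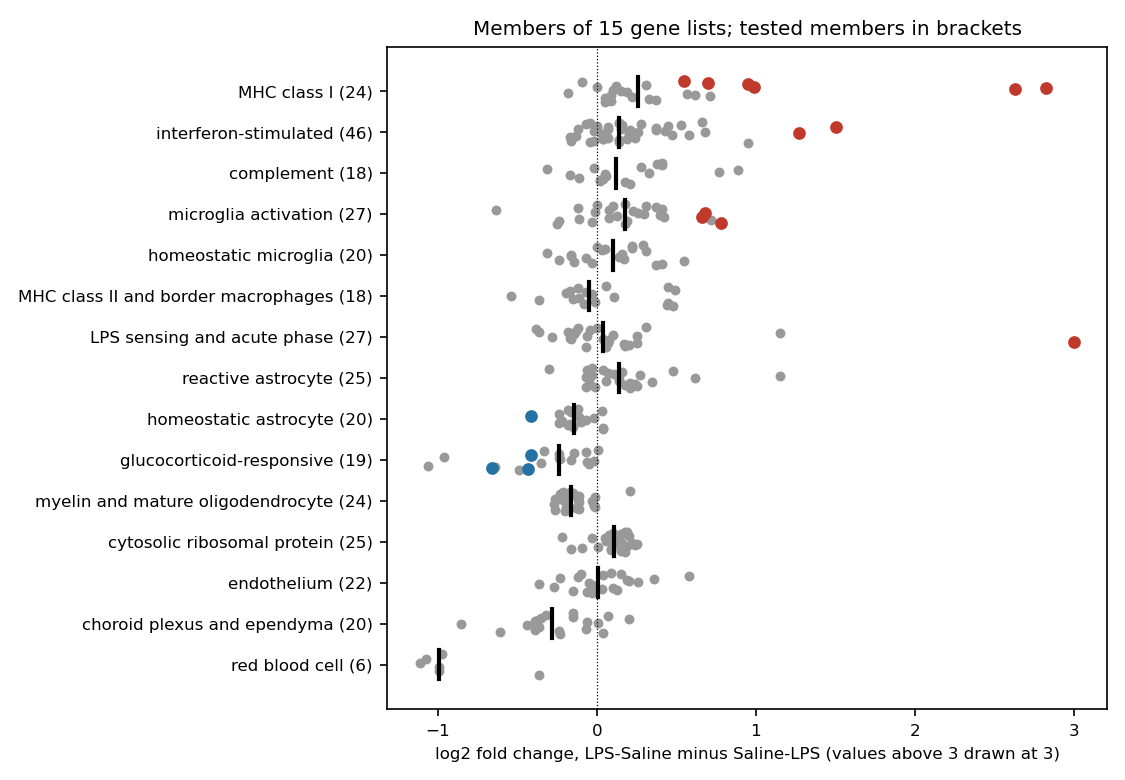
Log2 fold change of LPS-Saline minus Saline-LPS for the tested members of 15 gene lists, 1 point per gene, with a vertical bar at the list's median. Red and blue points are called genes; values above 3 are drawn at 3, which concerns Saa3 alone.

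The marker lists of red blood cells, choroid plexus, myelin, endothelium, lymphocytes and border macrophages, and the ribosomal protein list, held no call in edgeR. All 6 tested red blood cell genes had a negative value (median -0.99) with 0 calls in edgeR and 0 in DESeq2 and 1 under an unadjusted p of 0.05. Their summed level overlapped, at 16.7 to 110 CPM in LPS-Saline mice and 20.8 to 223 CPM in Saline-LPS mice, and the median was -2.42 among Gabra6-low libraries and 0.67 among Gabra6-high ones. The median of 20 choroid plexus and ependyma genes was -0.28, with 0 calls by either tool and 4 under an unadjusted p of 0.05, all lower. Their summed level was 728 to 961 CPM against 777 to 1333 CPM. Of 24 myelin genes 23 had a negative value (median -0.16, 0 calls by either tool, 6 lower and 1 higher, Apod, under an unadjusted p of 0.05). Of 25 ribosomal protein genes 21 had a positive value (median 0.11, 0 calls by either tool). Of the 25, 11 were under an unadjusted p of 0.05, all higher in LPS-Saline, and 4 separated the groups upward, against 2.35% of all tested genes. Over all tested genes, 3.96% were under an unadjusted p of 0.05 and higher in LPS-Saline, and 3.16% under it and lower. The median of 22 endothelial genes was 0.01, with 1 call in DESeq2 and 4 genes under an unadjusted p of 0.05 (3 higher, 1 lower). Summed levels of lymphocyte markers were 29 to 36.8 CPM against 27.8 to 35.3 CPM and those of class II and border macrophage genes 43.1 to 47.9 CPM against 43.3 to 49.6 CPM. The part of these cell types in the called genes was not tested.

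Gene length and base composition also moved with the groups. Over 15194 genes the log2 fold change had a Spearman correlation of -0.282 with exonic length and of 0.326 with GC content. Shorter and GC-rich genes thus stood higher on average in LPS-Saline libraries, and genes are not independent replicates. By library, levels relative to the mean correlated with GC content at 0.436, 0.432, -0.167 and -0.273 in LPS-Saline. In Saline-LPS the values were 0.285, 0.191, -0.432 and -0.547. For GC content the groups overlapped, and replicates 1 and 2 were positive in both. With exonic length the correlations were -0.252, -0.0573, -0.15 and -0.0454 in LPS-Saline. They were 0.256, 0.112, -0.0495 and -0.0206 in Saline-LPS, where only replicate 3 lay within the range of LPS-Saline. The median exonic length was 2096.5 bases for the 14 genes higher in LPS-Saline, 3507.5 for the 4 lower and 3827 for all tested genes. With GC content and length corrected, 21 genes were called, 12 higher and 9 lower in LPS-Saline, against 14 and 4 without. B2m, Ctss and Ctla2a no longer passed (adjusted p = 0.0894, 0.13 and 0.053), and the other 15 still did.

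The levels of the called genes in Saline-Saline mice show where each single-injection group stood. Both comparisons below use the same 4 Saline-Saline libraries, so they are given side by side as fitted values and not tested against each other. H2-K1 was at 0.95 ± 0.13 in LPS-Saline and -0.01 ± 0.13 in Saline-LPS on the log2 scale against Saline-Saline, B2m at 0.57 ± 0.07 and 0.02 ± 0.07, and Lyz2 at 0.87 ± 0.11 and 0.09 ± 0.11. Irf7 was at 1.07 ± 0.19 and -0.21 ± 0.20, and Ifi27l2a at 1.49 ± 0.24 and -0.00 ± 0.26. For these genes the Saline-LPS value lay near 0.

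H2-Q6 and H2-Q7 lay on both sides of Saline-Saline. H2-Q6 was at 1.72 ± 0.26 in LPS-Saline and -1.10 ± 0.32 in Saline-LPS, and H2-Q7 at 1.81 ± 0.29 and -0.82 ± 0.36. The genes higher in Saline-LPS did so too. Etnppl was at -0.36 ± 0.11 in LPS-Saline and 0.41 ± 0.11 in Saline-LPS, Sult1a1 at -0.32 ± 0.11 and 0.34 ± 0.11, and Gjb6 at -0.16 ± 0.08 and 0.25 ± 0.08. Tsc22d3 leaned more on LPS-Saline, at -0.32 ± 0.08 and 0.11 ± 0.08. The direct difference for these genes therefore sums a lower level in the first group and a higher level in the second, each relative to Saline-Saline. The median of the glucocorticoid list was -0.26 in LPS-Saline and 0.11 in Saline-LPS against Saline-Saline, and that of the class I list 0.36 and 0.04.

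**Figure D5:**
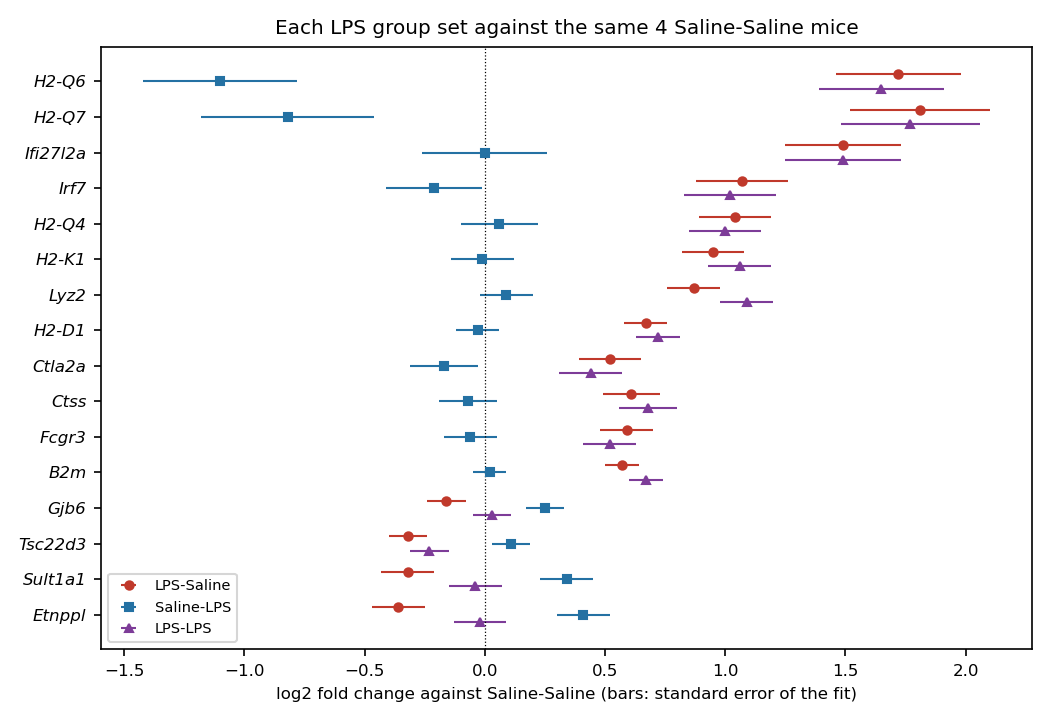
Log2 fold change against Saline-Saline (bars are the standard error of the fit) of 16 called genes in LPS-Saline (circles), Saline-LPS (squares) and LPS-LPS (triangles). All 3 values of a gene share the same 4 Saline-Saline mice; H2-Q6 lies at 1.72, -1.10 and 1.65, Etnppl at -0.36, 0.41 and -0.02.

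The 8 libraries of the other groups, LPS-LPS and Saline-Saline, were not used in the contrast itself, apart from the shared estimate of the spread. For the 14 genes higher in LPS-Saline than in Saline-LPS, LPS-LPS minus Saline-Saline was positive in 14, with a median log2 fold change of 1.04. H2-K1 was at 1.06 ± 0.13, B2m at 0.67 ± 0.07, Lyz2 at 1.09 ± 0.11 and Saa3 at 4.65 ± 0.83. Among all tested genes, 67.3% of those positive in the contrast were positive there. Levels correlated with exonic length at 0.153 to 0.327 in Saline-Saline libraries and at -0.368 to -0.184 in LPS-LPS libraries, without overlap. Shorter genes thus stood higher on average in LPS-LPS, as they did in LPS-Saline in the contrast. The values here were not corrected for length, and the part of this trend in them was not tested. For the 4 genes higher in Saline-LPS, LPS-LPS minus Saline-Saline was negative in 3, with a median of -0.03, against 66.5% of all negative genes. Etnppl was at -0.02 ± 0.11, Sult1a1 at -0.04 ± 0.11, Gjb6 at 0.03 ± 0.08 and Tsc22d3 at -0.23 ± 0.08.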

How the data were processed

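Whole-brain RNA of 16 mice was sequenced, and the deposited values are raw read counts for each Ensembl gene. Per the submitters' processing notes, the authors used STAR 2.5.2b, HTSeq 0.11.2 and the GRCm38 build. Not given in the sources used here are strand handling, annotation release and read filters, so reads of genes that overlap, antisense ones included, may be mixed. Of all counts in the 8 libraries, 8.375 to 10.09% had no gene, 5.165 to 5.475% fell on more than 1 gene and 3.176 to 3.897% aligned to several places. The 5 special entries that hold such reads entered neither library sizes nor tests. Of 49671 gene identifiers, 49412 were matched to symbols and GRCm38 coordinates in GENCODE release M21.

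Counts were tested with edgeR 4.0.16 in R 4.3.3 (filterByExpr, TMM, robust quasi-likelihood), with all 16 libraries in 1 fit of 4 group means, 12 residual degrees of freedom and a two-sided contrast of LPS-Saline minus Saline-LPS, with Benjamini-Hochberg adjustment over 18875 genes. The biological coefficient of variation was 10.4%. The script was tested on simulated data. CPM values are counts scaled by library size and TMM factor, and reads carried no molecular identifiers, so counting intervals cover counting error only. Promoter sequences are RefSeq's.

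The comparison and the 34 gene lists were chosen with earlier results of these data known. Named genes are those past the threshold that average 1 CPM or more and separate the groups, up to 15 per direction and filled to 10 by p, up to 4 members of each list with a call, the extremes of the lists described, and 11 genes always given. Predicted genes and pseudogenes were counted; H2-Q5 was named after its values were seen.

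Same-numbered libraries of the 2 groups correlated at 0.243 to 0.424 in their deviations from the group means over 15230 genes, which by a rule of more than 0.1 in every pair was taken as pairing. Yet 2 of 8 libraries alone had their own number as best match, and replicates 1 and 2 of both groups were those with little cerebellar RNA. The main test did not use the pairing, and the replicate number entered as a block in alternatives only.

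The 21 alternatives were other size factors, other filters on low counts, DESeq2 1.42.0, fewer libraries, the replicate number as a block, a cerebellar covariate, GC content and length correction, and each of the 8 libraries left out.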

Additional observations from a re-analysis of the deposited data

Results flagged for a closer look

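Among 36 groups of 4 mice looked at for the called genes, 3 values stood far from the other mice of their group, where chance alone flags about 1 group in 20. Etnppl was at 19.1 CPM in LPS-Saline 2, below the other mice of that group, at 22.5 to 23.1 CPM. Saa3 was at 2.96 CPM in LPS-Saline 3, above 0.509 to 0.888 CPM in the others, and at 0.0938 CPM in Saline-LPS 1, the one Saline-LPS library with a count of it.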

How the results depend on the processing

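All 18 called genes kept their direction under the 21 alternatives, except that 2 (H2-Q5 and Saa3) had a value under 20 of them, and H2-D1 and H2-Q6 passed in every one. The count of 18 rose to 64 with DESeq2, 39 with the replicate block, 49 with the replicate block and GC content and length corrected, and 62 with a cerebellar covariate. It fell to 9 in the 8 libraries alone and 2 in the Gabra6-high libraries. Leaving out 1 library gave 11 to 26. It was 18 with other size factors, 27 without a filter, 15 at a mean of at least 1 CPM, 16 without LPS-LPS 3, 17 in the Gabra6-low libraries, 21 with GC content and length corrected and 21 with the block in the 8 libraries alone. Over all alternatives, 81 single values of called genes no longer passed and 295 did. Fits with fewer libraries have less power, and the Gabra6-low and Gabra6-high fits each compared 2 mice with 2. The cause of these changes was not tested. Of the 41 named genes that were not called, signs turned in 22 values, in the Gabra6-high libraries for Il1r1 (0.01), Hba-a2 (0.42), Gfap (-0.00), Myrf (0.03) and Slc7a11 (-0.06), and in the Gabra6-low ones for Rpl35 (0.06) and Cdkn1a (-0.20). Cdkn1a was also at -0.02 with GC content and length corrected, with and without the block. Gabra6 was at 0.18 with the cerebellar covariate. Leaving out 1 library, the values of these genes spanned 0, with H2-T24 from -0.28 to 0.00, Rpl35 from -0.38 to 0.02, Dynlrb2 from -0.08 to 0.42, Oas1b from -0.30 to 0.01, Slc7a11 from -0.03 to 0.10, Gabra6 from -1.96 to 1.37 and Cdkn1a from -0.06 to 0.08. Depth limits genes such as Saa3, with 3 counts over the 4 Saline-LPS libraries, and the cytokines, which were not tested.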
